A study of Mus musculus with 21 samples.

Results

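Mammary tumours that formed in mice carrying the LPA3 receptor transgene were compared with those of mice carrying the LPA2 receptor transgene. The comparison was defined by the labels of the tumour channel, which name the transgene and the mouse, and it held 10 of the 20 tumours of the series, 5 per transgene. Both transgenes were driven by the MMTV promoter, the promoter of the mouse mammary tumour virus, which is active in mammary epithelium. The other 10 tumours, 5 with an autotaxin (ATX) and 5 with an LPA1 transgene under the same promoter, entered the fit, where they bear on the estimate of the spread between tumours and, through the slides, on the fitted differences, but not the group means. Each tumour came from a separate mouse, so the spread within a genotype includes that between mice. Strain, age and tumour stage of the mice, and the species of the receptor cDNA, are not given in the sources used here, and no normal mammary gland was analysed. Each tumour was hybridised to an Agilent 2-colour array with Cy5, against whole-mouse total RNA with Cy3, so every value is a log2 ratio of tumour to whole mouse and 0 is the level of the whole mouse. No dye swap was made, and a probe's dye bias is shared by both genotypes.

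Lysophosphatidic acid (LPA) is a small lipid that acts outside the cell as a growth and motility signal. Autotaxin releases it from lysophosphatidylcholine, lipid phosphate phosphatases break it down, and G protein-coupled receptors on the cell surface respond to it. LPA2 and LPA3 are related receptors that both signal through Gi and Gq proteins. LPA2 also binds scaffold proteins through its C-terminal tail, and LPA3, known for its part in embryo implantation in the uterus, prefers LPA with an unsaturated fatty acid. Signals downstream of these receptors include phospholipase C, MAP kinase and the shedding of ligands of the epidermal growth factor receptor.

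The tumours lay on 4 slides, which fell into 2 sets. The first set held LPA2 mice 3 and 4 and LPA3 mice 1, 2, 3 and 5, and the second held LPA2 mice 1, 2 and 5 and LPA3 mouse 4. Within an array the SD of the log2 ratios over features was 1.232 to 1.356 on the first set and 0.825 to 0.884 on the second. In the fit of all tumours 1503 of 19069 genes differed between the slide sets at a limma adjusted p under 0.05, of which 1206 were higher on the second set. Over genes, tumours of the first set correlated with each other at a median of 0.64, tumours of the second set at 0.48, and pairs across the sets at 0.46. The slide set was therefore a covariate in all differences printed here unless another fit is named. The tumours of LPA2 mouse 3 and LPA3 mouse 4 stood apart from their groups most often, and a named gene's difference that moved by more than 1.5 times when either was left out is given without that tumour too. All 10 tumours carried epithelial transcripts: Krt8, a keratin of simple epithelia, was at 0.27 to 2.54 and Krt18, its partner, at 0.44 to 3.08. Epcam, an epithelial adhesion molecule, lay between −0.28 and 1.93 and was below 0 in LPA3 mouse 4 alone. Cdh1, which encodes E-cadherin, ran the other way. It was at −3.0 to −0.61, below the whole mouse, in all LPA3 tumours. In LPA2 tumours it was at −0.98 to 0.23, with mice 2, 3 and 4 below 0, so the groups overlapped. The Cdh1 difference was −0.65 (SE 0.438) with the slide set and −1.16 without it.

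The transgenic receptors were examined first. The single Lpar3 feature read −0.38, −0.45, −1.08, −0.46 and −0.72 in LPA2 mice 1 to 5 and 1.01, −2.40, 2.04, 0.04 and −0.27 in LPA3 mice 1 to 5. LPA3 mice 1 and 3 were above every LPA2 tumour and LPA3 mouse 2 was the lowest of all, so the groups overlapped. The means were −0.62 ± 0.291 (SD, n = 5) in LPA2 and 0.08 ± 1.66 (SD, n = 5) in LPA3 tumours, and the difference was 0.95 with an SE of 0.585 (limma adjusted p = 0.785). Lpar2 read 0.97, −0.01, 0.38, 1.16 and 0.40 in the LPA2 tumours and 1.63, −0.14, 2.64, 0.74 and 1.38 in the LPA3 tumours. Its mean was not higher in the tumours with the LPA2 transgene, at 0.58 ± 0.479 (SD, n = 5) against 1.25 ± 1.03 (SD, n = 5), and the difference of 0.56 (SE 0.477) pointed to the LPA3 tumours. The labels do not say whether either feature reads the transgene's transcript, so these values do not serve as a check of the labels. The other receptors measured differed by 0.06 for Lpar1 (SE 0.492), −0.35 for Lpar4 (SE 0.274) and −0.21 for Lpar6 (SE 0.173), none past the threshold. Without the covariate the Lpar1 difference was −0.53, of the opposite sign, and without LPA3 mouse 4 those of Lpar1 and Lpar4 were −0.10 and −0.23.

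Across all genes, 0 of 19069 (0.0%) differed between LPA3 and LPA2 tumours at a limma Benjamini-Hochberg adjusted p under 0.05, with the slide set as a covariate or without it. The smallest adjusted p was 0.589 with the covariate and 0.17 without. At an unadjusted p under 0.05 the fit with the covariate held 1236 genes (6.48%), 534 higher (2.8%) and 702 lower (3.68%) in LPA3 tumours, and the fit without it held 1778. The count was 727 without LPA2 mouse 3 and 1862 without LPA2 mouse 4, the range over leaving out each tumour in turn. The median difference over all genes was −0.03, with 8999 genes above 0 and 10070 below, and the median SE of a gene was 0.35. Overlap, here and below, was judged on the values as measured, without adjustment for the slide set. All 5 LPA3 values lay above all 5 LPA2 values in 173 of the 18980 genes measured in all 10 tumours (0.911%). In 143 genes (0.753%) they lay below them. The genes and lists that follow are therefore given as values, and none of their differences passed the test.

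The smallest p among genes with a higher mean in LPA3 tumours belonged to 4933406I18Rik, an uncharacterised transcript with 1 feature. It read 0.00, 0.00, 1.14, 0.00 and 0.98 in LPA2 mice 1 to 5 and 4.30, 1.91, 1.68, 2.93 and 2.44 in LPA3 mice 1 to 5. The groups did not overlap, and 3 of the LPA2 values were exactly 0, an entry that neither labels nor files explain. The difference was 2.21 (SE 0.402, limma adjusted p = 0.589), and it was 2.01 within the first slide set and 2.60 within the second. ATX and LPA1 tumours had means of −0.05 ± 0.0892 and 0.12 ± 0.156 (SD, n = 5 each). ATX mice 1, 2 and 5 and LPA1 mice 2 and 3 also read 0.00. These small SDs thus rest in part on 0 values, and the same tumours enter the SE of the fit.

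Cdkn1a, an inhibitor of cyclin-dependent kinases, was measured by 10 features, any pair of which correlated at 0.86 or more over the 20 tumours. LPA2 mice 1 to 5 had −0.75, −0.57, −2.27, −1.30 and 0.09, and LPA3 mice 1 to 5 had 0.50, 0.77, 0.68, 0.18 and 0.22. Every LPA3 tumour was above the whole-mouse level and above every LPA2 tumour, with LPA2 mouse 5 closest to them. The difference was 1.58 (SE 0.375, limma adjusted p = 0.764), 2.33 on the first slide set and 0.59 on the second. Bmp7, a secreted bone morphogenetic protein read by 11 features, had −1.24, −1.62, −1.23, −2.19 and 0.01 in the LPA2 tumours and 0.01, −0.24, 0.91, 1.20 and 2.08 in the LPA3 tumours. LPA2 mouse 5 lay within the range of the LPA3 tumours and the other LPA2 tumours lay below it. The difference of 2.44 (SE 0.612) was near the same size in both sets, 2.40 and 2.16.

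Cnih4, an escort of membrane receptors out of the endoplasmic reticulum, did not overlap either, with LPA2 values of 0.40, 0.29, 0.07, −0.04 and 0.24 and LPA3 values of 1.28, 0.41, 1.34, 0.96 and 1.59. Its difference was 0.91 (SE 0.217), and its 2 features correlated at 0.40. Ltv1, a factor in the assembly of the small ribosomal subunit, differed by 1.43 (SE 0.315), and Sod3, the extracellular superoxide dismutase, by 1.79 (SE 0.422). In Sod3 and in Cfap54, a protein of motile cilia (difference 1.90, SE 0.48), LPA3 mouse 4 stood far above the other LPA3 tumours, at 2.13 and 3.91. Without that tumour the differences were 1.30 and 1.06. Snn, which encodes the small membrane protein stannin, differed by 1.48 (SE 0.384), and its low LPA2 values, −2.56 and −3.14, were those of the first slide set.

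**Figure D1:**
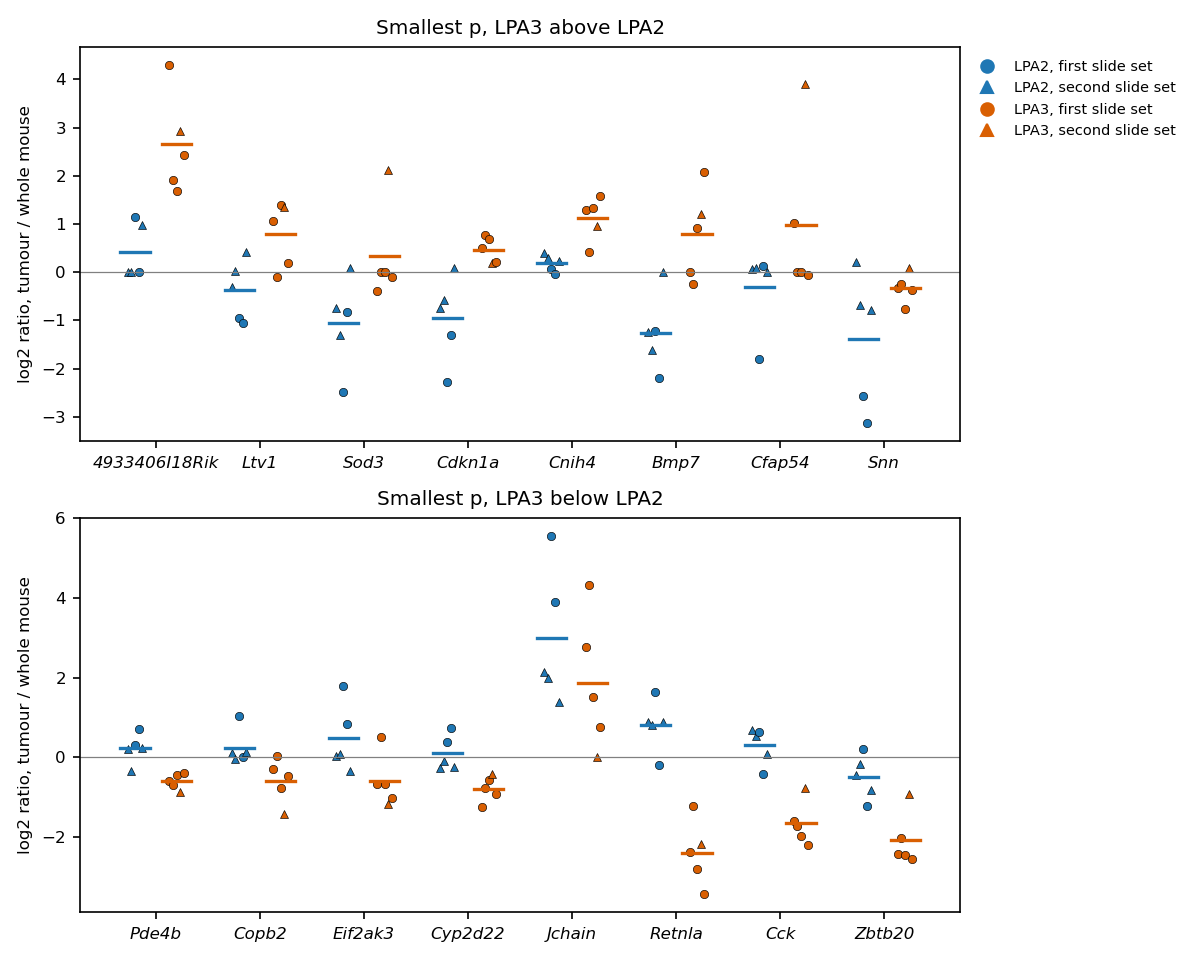
Log2 ratio of tumour to whole mouse (vertical axis) for the 8 genes of smallest p in each direction, with one point per tumour, circles for the first slide set and triangles for the second, and bars at the group means. Cdkn1a, Cnih4 and 4933406I18Rik above, and Pde4b, Cyp2d22, Retnla and Cck below, are the genes whose LPA2 and LPA3 points do not overlap.

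Among genes with a lower mean in LPA3 tumours, Retnla had the largest difference of the 8 of smallest p. It encodes the resistin-like molecule alpha, a secreted protein of macrophages stimulated by interleukin-4 and of adipose tissue. LPA2 mice 1 to 5 had 0.89, 0.82, 1.64, −0.20 and 0.90 and LPA3 mice 1 to 5 had −2.38, −1.23, −2.81, −2.17 and −3.44. Every LPA3 tumour lay below every LPA2 tumour by more than 1 unit, and the 2 features of the gene correlated at 0.99 over the 20 tumours. The difference was −2.89 (SE 0.713, limma adjusted p = 0.764), with −3.19 and −3.04 in the slide sets and −2.37 without LPA2 mouse 3. Cck, the precursor of the peptide hormone cholecystokinin, read 0.68, 0.53, 0.65, −0.42 and 0.08 in the LPA2 tumours and −1.59, −1.71, −1.96, −0.76 and −2.21 in the LPA3 tumours. These groups did not overlap, LPA3 mouse 4 came nearest to the LPA2 tumours, and the difference was −1.89 (SE 0.466).

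Pde4b, a phosphodiesterase that breaks down cyclic AMP, had the smallest p in this direction. Its values were 0.22, −0.34, 0.32, 0.71 and 0.24 in LPA2 mice 1 to 5 and −0.59, −0.69, −0.45, −0.86 and −0.39 in LPA3 mice 1 to 5, again without overlap. The difference of −0.94 (SE 0.193) was −1.04 and −0.90 in the slide sets, but its 5 features did not all move together, the least alike pair correlating at −0.24. Copb2, a subunit of the COPI vesicle coat, differed by −1.08 (SE 0.235), and Eif2ak3, the kinase PERK that senses stress in the endoplasmic reticulum, by −1.41 (SE 0.314). Cyp2d22, a cytochrome P450, had −0.96 (SE 0.229), with −1.43 within the first slide set and −0.22 within the second. The transcriptional repressor Zbtb20 had −1.29 (SE 0.317), with LPA3 mouse 4 at −0.93 among the LPA2 values and the other LPA3 tumours at −2.54 to −2.03. Its difference without LPA2 mouse 3 was −0.82.

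Beyond these, the genes without overlap that differed most were read mostly by 1 feature. On the higher side were Ulbp1 (1.97, SE 0.634), a ligand of the NKG2D receptor of killer cells, and Nmu (1.96, SE 0.713), the precursor of neuromedin U. The highest Nmu value of the LPA3 tumours, 0.00 in mouse 3, was an exact 0, again unexplained. Gabrp, the pi subunit of the GABA-A receptor, had 1.16, 0.34, −0.35, 1.90 and 1.94 in the LPA2 tumours and 3.32, 3.26, 3.97, 1.96 and 2.59 in the LPA3 tumours. Its difference was 1.94 (SE 0.796), and LPA3 mouse 4 was barely above LPA2 mouse 5, which lay on the same slide. Exo1, an exonuclease of DNA mismatch repair, had 0.02, −0.14, −2.15, 0.18 and 0.54 against 1.63, 1.51, 1.71, 1.41 and 1.89. The LPA3 tumours lay close together, and LPA2 mouse 3 was far below the rest. The Exo1 difference was 1.81 (SE 0.528) with all tumours and 0.99 without LPA2 mouse 3. Bend4, a BEN domain gene, had 1.80 (SE 0.559). Trmt44, a tRNA methyltransferase, and Pdxk-ps, a pseudogene of pyridoxal kinase whose feature may also read its parent gene, had 1.93 (SE 0.87) and 1.90 (SE 0.66). In both of them LPA3 mouse 5 was the highest tumour, at 5.26 and 3.75, and without it the Trmt44 difference was 1.15. That of Nmu was 1.22 without LPA2 mouse 4, and that of Ulbp1 1.23 without LPA2 mouse 3.

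On the lower side were Dmrt2 (−2.39, SE 0.903), a transcription factor, and Steap3 (−1.95, SE 0.508), a ferrireductase. Edn1, the precursor of the vasoconstrictor endothelin, read 0.50, 0.49, 0.42, −0.69 and 0.11 in LPA2 mice 1 to 5 and −2.40, −0.70, −2.90, −0.79 and −1.80 in LPA3 mice 1 to 5. LPA3 mouse 2 was just below LPA2 mouse 4, and the difference was −1.79 (SE 0.442). Cd5l, a protein secreted by macrophages, had −1.85 (SE 0.583), and Clec1b, a receptor of platelets, −1.64 (SE 0.601). Without LPA3 mouse 4 the differences of Steap3 and Clec1b were −1.12 and −0.56, and without LPA2 mouse 3 that of Dmrt2 was −1.58. The olfactory receptor gene Olfr1406 had −1.79 (SE 0.721) with all tumours and −1.22 without LPA2 mouse 3, which was at 3.14.

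The 32 gene lists, grouped by pathway, process and cell type, held 465 distinct measured genes. Of these, 15 were higher (3.23%) and 21 lower (4.52%) in LPA3 tumours at an unadjusted p under 0.05. All genes gave 2.8% and 3.68%, the shares to set beside the counts of every list that follows. No list member passed after adjustment. In whole tumours fewer cells of a type and less RNA per cell cannot be told apart, which holds for every list that follows.

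Genes of mitosis and DNA replication lay higher in the LPA3 tumours, but much less so once 1 LPA2 tumour was left out. All 21 measured members had a difference above 0, with a median of 0.72 against −0.03 for all genes. At an unadjusted p under 0.05 were 6 of the 21, against 2.8% of all genes in that direction. In 4 of the 21 the groups did not overlap, against 0.911% of the genes measured in all 10 tumours. The median of the list was −0.51, −0.72, −1.42, 0.09 and 0.02 in LPA2 mice 1 to 5 and 0.37, 0.14, 0.36, 0.28 and 0.59 in LPA3 mice 1 to 5. The LPA3 tumours lay close together and all above the LPA2 tumours, of which mouse 3 was the lowest. Without LPA2 mouse 3 the difference was above 0 in 18 of 21 members, its median was 0.16, and 0 members were at an unadjusted p under 0.05. That tumour was also the highest of the LPA2 group in Foxa1 and Spdef, transcription factors of luminal epithelium, at 3.09 and 4.42. The first slide set alone gave a median of 1.11, the second 0.61.

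Aurkb, the mitotic kinase Aurora B, read −1.74, −2.0, −3.10, −0.44 and −0.95 in LPA2 mice 1 to 5 and −0.23, −0.19, −0.40, 0.25 and 0.31 in LPA3 mice 1 to 5. The groups did not overlap, and the difference was 1.36 (SE 0.579, limma adjusted p = 0.764), or 0.64 without LPA2 mouse 3. Cdk1, the kinase that drives entry into mitosis, had −0.42, −0.39, −1.27, 0.33 and 0.06 and then 0.61, 0.40, 0.81, 0.56 and 1.71, with a difference of 0.95 (SE 0.391) and 0.46 without that tumour. Rrm2, a subunit of the ribonucleotide reductase that supplies DNA precursors, had −0.15, −0.34, −1.82, −0.31 and 0.12 against 0.53, 0.36, 0.64, 0.28 and 0.80. It too was free of overlap, and its 0.98 (SE 0.371) became 0.43 without LPA2 mouse 3. Tyms, thymidylate synthase, had −1.25, −0.45, −0.68, −0.43 and 0.02 against 0.17, 0.03, 0.55, 0.11 and 0.41. Its difference of 0.66 (SE 0.282) moved least, to 0.52. The mitotic kinase Plk1 (0.96, SE 0.442) and the replicative helicase subunit Mcm6 (1.12, SE 0.517) overlapped between the groups, and without LPA2 mouse 3 stood at 0.45 and 0.29. Mki67, the usual histological marker of proliferation and named here after its values were seen, had 0.53 (SE 0.478) with all tumours and −0.29 without LPA2 mouse 3.

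**Figure D2:**
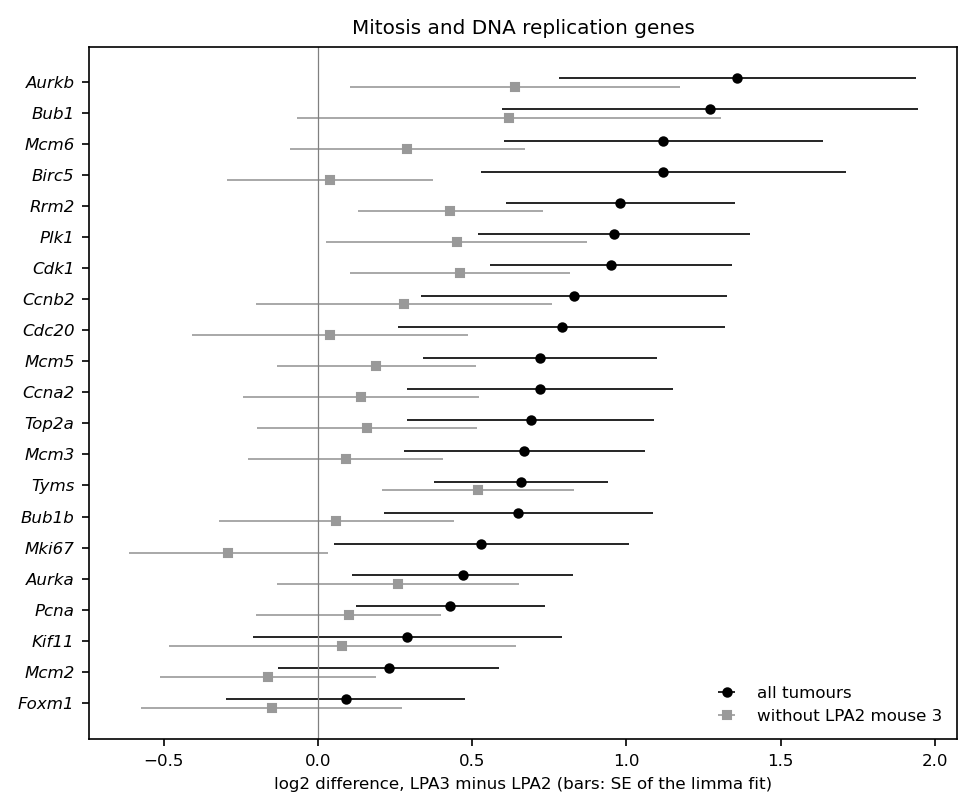
Difference of LPA3 minus LPA2 tumours in log2 units (horizontal axis) for the 21 genes of mitosis and DNA replication, with all tumours in black and without LPA2 mouse 3 in grey, and bars of 1 SE from the limma fit. All black points lie above 0, and 18 of 21 grey points do, nearer to 0.

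Many promoters of genes that peak in late cell cycle carry 2 short elements near the start site, the cell cycle homology region (CHR), which the DREAM and MMB complexes bind, and a CCAAT box, which NF-Y binds. Of the list's members, 18 had a promoter in RefSeq (GRCm38.p6), 250 bases before to 50 after the start. A CHR core, TTTGAA or TTTAAA on either strand, was found in 13 of 18 (72.2%), against 27.9% of all 27025 promoters of the same length. CCAAT on either strand was found in 16 of 18 (88.9%) against 37.8%, and both in 12 of 18 (66.7%) against 10.8%. These matches describe letters and not occupied sites. The list was made of cell cycle genes, so its shares describe the list and do not bear on the difference between the genotypes. The 150 bases before the start are shown for the 3 members without overlap that had an entry, with CHR cores and CCAAT boxes of either strand in capitals. Cdk1 lies at chr10:69352913-69353062 (minus strand), Rrm2 at chr12:24708104-24708253 (plus strand) and Tyms at chr5:30073626-30073775 (minus strand), and each is read along its gene.
Cdk1: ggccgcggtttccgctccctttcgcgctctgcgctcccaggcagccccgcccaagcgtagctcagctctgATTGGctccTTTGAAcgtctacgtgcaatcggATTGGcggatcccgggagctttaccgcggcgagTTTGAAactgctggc
Rrm2: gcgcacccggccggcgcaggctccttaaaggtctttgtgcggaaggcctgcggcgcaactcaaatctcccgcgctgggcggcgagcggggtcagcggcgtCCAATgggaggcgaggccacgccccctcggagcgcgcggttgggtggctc
Tyms: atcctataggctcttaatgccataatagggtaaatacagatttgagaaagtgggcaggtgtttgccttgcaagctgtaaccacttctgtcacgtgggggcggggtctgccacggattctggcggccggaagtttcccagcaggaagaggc
The Cdk1 stretch holds a CHR core and a CCAAT box close together and then a second pair. Rrm2 has 1 CCAAT box here, and its CHR core lay elsewhere in the searched window. Neither motif was found in the window of Tyms.

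Contractile genes of basal and myoepithelial cells lay lower in the LPA3 tumours, but less so once 1 LPA2 tumour was left out. The difference was below 0 in 11 of 14 list members, with a median of −0.51, and 4 of them were at an unadjusted p under 0.05. The list medians were 0.32, −0.10, 0.16, −0.81 and 0.35 in LPA2 mice 1 to 5 and −1.37, −1.72, −1.38, −0.22 and −1.83 in LPA3 mice 1 to 5. LPA3 mice 1, 2, 3 and 5 were all below every LPA2 tumour, while LPA3 mouse 4, on the second slide set, lay among the LPA2 tumours. Cnn1, the smooth muscle protein calponin, had 0.33, −0.21, 1.44, −2.28 and −1.32 in the LPA2 tumours and −3.18, −4.10, −3.37, −2.09 and −4.54 in the LPA3 tumours. The LPA3 tumours were lower apart from mouse 4, which was slightly above LPA2 mouse 4, and the difference was −2.51 (SE 0.713, limma adjusted p = 0.764). Smooth muscle myosin Myh11 had −1.50 (SE 0.502), the myosin light chain kinase Mylk −0.97 (SE 0.352), smooth muscle actin Acta2 −1.07 (SE 0.413), and transgelin, Tagln, of the list of YAP and SRF responsive genes, −0.95 (SE 0.351). For Acta2 and Tagln the first slide set alone gave −1.58 and −1.50, and the second −0.30 and −0.15. Smooth muscle of vessels expresses these genes too. Krt5 and Krt14, the keratins of basal epithelium, differed by −0.51 and −0.23. Without LPA2 mouse 3 the median of the basal list was −0.28, and the differences were −1.45 for Cnn1, −0.92 for Myh11 and −0.55 for Mylk. Acta2 was then at −0.75 and Tagln at −0.73. Of these genes Cnn1 alone was still at an unadjusted p under 0.05. The YAP and SRF list as a whole was evenly split, with 7 of 14 members above 0 and a median of 0.09.

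Endothelial genes moved with them, with 14 of 15 members below 0, a median of −0.48, and 2 at an unadjusted p under 0.05. Their list medians were −0.30, −0.05, −0.67, 0.09 and −0.01 in LPA2 mice 1 to 5 and −1.07, −1.16, −1.07, −0.31 and −1.22 in LPA3 mice 1 to 5. Apart from LPA3 mouse 4, the LPA3 tumours were below every LPA2 tumour. Von Willebrand factor, Vwf, had −1.09 (SE 0.391), the junction protein Esam −0.85 (SE 0.385) and VE-cadherin, Cdh5, −0.66 (SE 0.429). The least alike pair of the 3 Vwf features correlated at −0.18. The list median was −0.57 within the first slide set and −0.17 within the second, and −0.22 without LPA2 mouse 4. The Vwf difference was −0.58 without LPA2 mouse 3, and neither Vwf nor Esam was then at an unadjusted p under 0.05.

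Adipocyte genes had the lowest list median, −0.92, with 13 of 14 members below 0 and 2 at an unadjusted p under 0.05, and the slides bore on it. Without the covariate the median was −2.17, and with it −0.58 once LPA2 mouse 3 was left out. The list medians were −0.10, 0.80, −2.20, −2.97 and −0.81 in LPA2 mice 1 to 5 and −4.01, −3.90, −4.25, −0.58 and −4.44 in LPA3 mice 1 to 5. All 4 tumours of the second set were at −0.81 or above, whichever the transgene, and the 6 of the first at −2.20 or below. Within the first set the LPA3 tumours were below both LPA2 tumours, and within the second LPA3 mouse 4 was below LPA2 mice 1 and 2 and above LPA2 mouse 5. Plin4, a lipid droplet protein, had −1.73 (SE 0.797), its relative Plin1 −1.36 (SE 0.89), and the insulin-regulated glucose transporter Slc2a4, which muscle expresses too, −1.69 (SE 0.785). The Slc2a4 difference was −0.41 without LPA2 mouse 3. Skeletal muscle and liver genes, which the reference holds and a tumour should lack, had medians of −0.05 and −0.14 with the covariate and −1.24 and −1.41 without it. The part of mammary fat in the adipocyte difference was not tested.

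**Figure D3:**
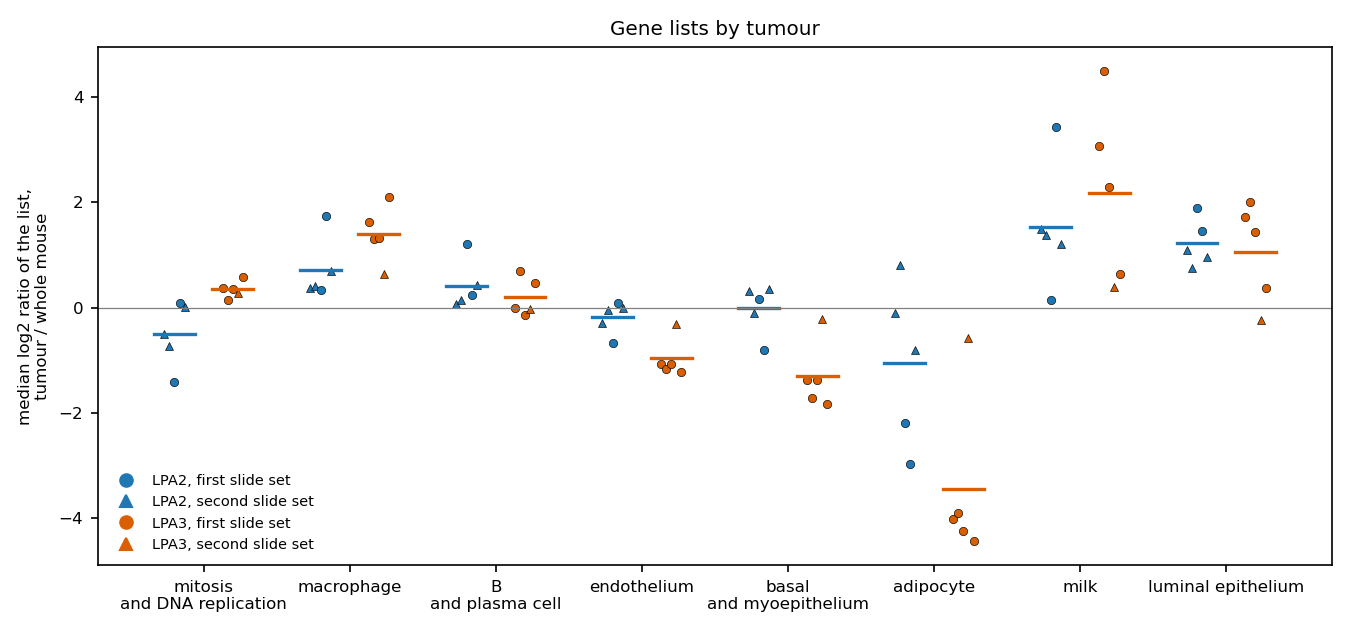
Median log2 ratio of tumour to whole mouse over the members of 8 gene lists (vertical axis), with one point per tumour, circles for the first slide set and triangles for the second, and bars at the group means. The mitosis list is the one shown whose LPA3 points all lie above the LPA2 points, and in the basal, endothelial and adipocyte lists LPA3 mouse 4 lies apart from the other LPA3 tumours.

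Luminal epithelial genes had a median difference of −0.49, with 12 of 17 members below 0 and 1 at an unadjusted p under 0.05. The list medians were 1.09, 0.76, 1.89, 1.46 and 0.96 in LPA2 mice 1 to 5 and 1.72, 2.01, 1.44, −0.23 and 0.38 in LPA3 mice 1 to 5. LPA3 mice 4 and 5 were below every LPA2 tumour, and the other LPA3 tumours lay within or just above the LPA2 range. Leaving out LPA3 mouse 4 or LPA2 mouse 3 brought the median difference to −0.23 or −0.24. Esrp1, a splicing regulator of epithelia, had −1.09 (SE 0.438), Elf5, which drives alveolar differentiation, −1.01 (SE 0.768), and Spdef −1.38 (SE 0.932). The Spdef difference was 0.06 without LPA2 mouse 3, and that of Esrp1 −0.66 without LPA3 mouse 4. Epithelial junction genes had 12 of 17 members below 0, a median of −0.45 and 2 at an unadjusted p under 0.05. This median was −0.22 without LPA3 mouse 4 and −0.27 without LPA2 mouse 3. Cldn8, a tight junction claudin, had 2.39, 2.10, 3.09, 1.06 and 1.31 in LPA2 mice 1 to 5 and 1.61, 1.54, 1.64, −3.03 and −2.94 in LPA3 mice 1 to 5. LPA3 mice 4 and 5 were about 4 units below the lowest other tumour and LPA3 mice 1, 2 and 3 lay within the LPA2 range, for a difference of −2.67 (SE 1). The zonula occludens protein Tjp3 had −1.29 (SE 0.493) and the polarity protein Crb3 −1.58 (SE 0.814). Without LPA3 mouse 4 the differences of Cldn8 and Crb3 were −1.73 and −1.01, and that of Crb3 was −1.01 without LPA2 mouse 3.

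Hormone sensing genes, which mark the oestrogen responsive luminal cells, were below 0 in 8 of 8 measured members, with a median of −0.27 and 0 at an unadjusted p under 0.05. Without LPA2 mouse 3, 2 of the 8 were above 0 and the median was −0.18, and without LPA3 mouse 4 it was −0.11. Esr1, the oestrogen receptor, had 1.42, 1.55, −0.25, −0.21 and 0.61 in the LPA2 tumours and −0.18, 0.45, −0.41, 0.24 and −0.75 in the LPA3 tumours. LPA2 mice 1 and 2 were the highest and the groups overlapped, with a difference of −0.55 (SE 0.419) that was 0.01 within the first slide set and −0.95 within the second. Foxa1, which opens chromatin for the oestrogen receptor, had −0.95 (SE 0.709) and Cited1 −0.55 (SE 0.627). Both were nearer 0 without LPA2 mouse 3, at −0.10 and −0.25, and without LPA3 mouse 4 Cited1 was at −0.15. Of the genes that had differed over the 4 genotypes of the series, Slc16a9 had −1.01 (SE 0.36) and Tnfsf11, which encodes RANK ligand, a messenger of progesterone, −0.10 (SE 0.641). Nabp1, a protein that binds single-stranded DNA, had 0.40 (SE 0.202). Tnfsf11 was at −0.51 and Nabp1 at 0.25 without LPA2 mouse 3, and Tnfsf11 at 0.15 without LPA3 mouse 4. Wfdc12, of the whey acidic protein family, read 1.27, 1.28, 4.14, 0.22 and 0.32 in LPA2 mice 1 to 5 and −0.26, −2.88, −2.10, −1.31 and 0.83 in LPA3 mice 1 to 5. LPA3 mouse 5 alone lay within the LPA2 range, and the difference was −2.83 (SE 0.73), or −1.90 without LPA2 mouse 3, the highest tumour.

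Milk genes split within both groups. Their list medians were 1.5, 1.37, 0.15, 3.42 and 1.20 in LPA2 mice 1 to 5 and 3.07, 4.50, 2.28, 0.40 and 0.64 in LPA3 mice 1 to 5, and 7 of 15 members were above 0, with a median difference of −0.16. LPA2 mouse 3 and LPA3 mice 4 and 5 were low, LPA2 mouse 4 and LPA3 mice 1, 2 and 3 high. Without LPA2 mouse 3 the list was lower in LPA3 tumours, with a median of −0.92. The sign also changed with the slides. The median was 0.87 on the first slide set and −1.0 on the second. It was 0.30 without the covariate and 0.31 with the slide as a fixed block. Alpha-lactalbumin, Lalba, ran the other way, at 1.14, 1.23, 0.00, 2.69 and 1.20 in the LPA2 tumours and 2.36, 3.16, 2.29, 3.53 and 2.56 in the LPA3 tumours. All LPA3 tumours and, among the LPA2 tumours, mouse 4 alone were above 2, and the difference was 1.34 (SE 0.509). The casein gene Csn1s2b had −1.09 (SE 1.02) and whey acidic protein, Wap, −0.93 (SE 1.12). These differences were 0.73 for Lalba, −1.83 for Csn1s2b and −2.06 for Wap without LPA2 mouse 3, and without LPA3 mouse 4 Lalba was at 0.79.

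Among immune lists, B and plasma cell genes had a median of −0.62, with 10 of 12 members below 0 and 3 at an unadjusted p under 0.05. Without LPA2 mouse 3 that median was −0.12. Jchain, which joins IgA and IgM into polymers, had 2.15, 1.99, 5.56, 3.90 and 1.39 in LPA2 mice 1 to 5 and 2.76, 4.34, 1.52, 0.00 and 0.76 in LPA3 mice 1 to 5. Within each slide set the LPA2 tumours were mostly the higher, LPA3 mouse 2 being the exception in the first. LPA3 mouse 4, alone of its group in the second, read 0.00. Of the Jchain feature values in LPA3 tumours 2 were exactly 0, an entry left unexplained. The Jchain difference was −2.23 (SE 0.546) with the slide set and −1.12 without. Mzb1, a chaperone of plasma cells, had −1.44 (SE 0.616), and the B cell receptor components Cd79a and Cd79b had −0.85 (SE 0.348) and −1.12 (SE 0.625). LPA2 mouse 3 was the highest tumour in Jchain and Mzb1, at 5.56 and 3.06. Without it Mzb1 was at −0.80 and Cd79b at −0.70, and without LPA3 mouse 4 Cd79a was at −0.31.

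Macrophage genes were above 0 in 14 of 16 members, with a median of 0.35 and 1 at an unadjusted p under 0.05. The list medians were 0.37, 0.41, 0.34, 1.74 and 0.69 in LPA2 mice 1 to 5 and 1.62, 1.30, 1.33, 0.63 and 2.09 in LPA3 mice 1 to 5. LPA2 mouse 4 lay among the high LPA3 tumours, and LPA3 mouse 4 among the low LPA2 tumours. The scavenger receptor Msr1 had 1.17 (SE 0.534) and the macrophage surface receptor Adgre1 0.73 (SE 0.35), while another scavenger receptor, Marco, had −0.97 (SE 0.732). Msr1, the member at an unadjusted p under 0.05, was at 0.34 without LPA2 mouse 3, and Marco at −0.04. Retnla and Cd5l, secreted by macrophages too, thus had differences below 0 while most members of this list were above it. With the slide as a fixed block 9 members of the list were above 0, at a median of 0.15, and without LPA2 mouse 3 11 were, at 0.16. Interferon response genes had 12 of 20 members above 0 and a median of 0.24, which was −0.08 without LPA2 mouse 3, and T and NK cell genes 6 of 17 and −0.23.

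Genes of the LPA pathway itself were mixed. Of 8 measured enzymes that make or break down LPA, 3 had a difference above 0. Pla2g4a, the cytosolic phospholipase that frees arachidonic acid and leaves lysophospholipids, had 0.04, 0.02, −1.33, −0.04 and 0.44 in the LPA2 tumours and 1.53, 0.55, 1.22, 0.86 and 0.98 in the LPA3 tumours. The groups did not overlap, LPA2 mouse 3 was far below the rest, and the difference was 1.32 (SE 0.357), or 0.94 without that tumour. Plpp2 and Plpp3, lipid phosphate phosphatases that inactivate LPA, had 0.72 (SE 0.656) and −0.44 (SE 0.314), and both changed sign on the second slide set. Plpp3 was at −0.28 without LPA2 mouse 3, and without LPA3 mouse 4 Plpp2 was at 1.30 and Plpp3 at −0.77. Autotaxin was not analysed here.

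Receptors and ligands of the ErbB family, which LPA receptors engage through shed ligands, had 8 of 14 members above 0 and a median of 0.13. Adam17, the protease that sheds several of these ligands, had −0.12, −0.80, 0.13, 1.70 and 0.22 in LPA2 mice 1 to 5 and 2.02, 0.80, 1.93, 0.72 and 2.20 in LPA3 mice 1 to 5. The LPA3 tumours ran from 0.72 to 2.20, and LPA2 mouse 4 alone of its group lay within that range. The Adam17 difference was 0.88 (SE 0.33). It was 0.59 without LPA2 mouse 3 and 0.58 with the slide as a fixed block. The epidermal growth factor receptor Egfr was read by 24 features, the least alike pair correlating at 0.29. It had 0.00, −0.12, 0.99, −1.04 and 0.13 against −2.36, −0.41, −1.92, −0.20 and −1.39. The difference was −1.02 (SE 0.431), −1.49 on the first slide set and −0.20 on the second, and −0.49 without LPA2 mouse 3. Its ligand Egf had −2.11 (SE 1.11) and −0.53 without LPA2 mouse 3, which was at 4.99, and the ligand Hbegf had 0.92 (SE 0.902) and 0.32 in the same order.

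Wnt targets and antagonists had 14 of 19 members above 0, with a median of 0.19, 2 higher and 1 lower at an unadjusted p under 0.05. The median was 0.04 without LPA3 mouse 2. Notum, a deacylase that inactivates Wnt proteins, had 1.82 (SE 0.771), the antagonist Dkk2 1.5 (SE 0.95) and the Wnt effector Lef1 1.02 (SE 0.388). The Lef1 difference was 1.52 on the first slide set and −0.04 on the second, and 0.56 without LPA2 mouse 3. Rspo1, a secreted enhancer of Wnt signals made by luminal cells, had 2.15, 1.74, −2.68, −3.23 and 0.80 in LPA2 mice 1 to 5 and −4.20, −3.55, −7.21, −2.19 and −4.09 in LPA3 mice 1 to 5. It was high in the LPA2 tumours of the second slide set and low in the others, LPA3 mouse 4 included. The difference was −3.08 (SE 0.95, limma adjusted p = 0.764), −1.80 within the first set and −3.75 within the second.

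Mesenchymal transition genes had 11 of 16 members above 0 and a median of 0.20, and 6 of 16 with the slide as a fixed block. The median was −0.04 without LPA3 mouse 5 and 0.01 without LPA2 mouse 3. Twist1, a transcription factor of this programme, had −1.30, −0.92, −2.13, −1.16 and −0.51 in the LPA2 tumours and 0.56, −2.31, 0.78, 0.57 and 0.68 in the LPA3 tumours. LPA3 mouse 2 was the lowest of all 10 tumours and the other LPA3 tumours were above all LPA2 tumours, with a difference of 1.48 (SE 0.682). Snai1 had 1.09 (SE 0.615) and S100a4, a calcium-binding protein of motile cells, 1.02 (SE 1.07). Without LPA3 mouse 4 these were 0.69 and 0.44, and Snai1 was at 0.61 without LPA2 mouse 3. Inflammatory and angiogenic mediators had 12 of 22 members above 0 and a median of 0.03, with 3 lower at an unadjusted p under 0.05. That median ran from −0.26 without LPA2 mouse 3 to 0.32 without LPA2 mouse 4. Among them was the chemokine Ccl20, at 2.57, 2.48, 0.65, 2.36 and 1.38 in the LPA2 tumours and −2.21, 1.16, 0.00, −1.22 and −1.22 in the LPA3 tumours. LPA2 mouse 3 was below LPA3 mouse 2, the other LPA2 tumours were above all LPA3 tumours, and the difference was −2.41 (SE 0.98). The stromelysin Mmp3 had −2.26 (SE 0.642), −2.98 on the first slide set and −0.31 on the second. The monocyte chemokine Ccl8 had −1.19 (SE 0.353) with the slide set and 0.03 without it. Ptgs2, the inducible cyclooxygenase, had −1.32, −1.38, −0.97, 2.56 and 1.54 against 2.62, −0.37, 2.35, 2.26 and 2.30. It was high in LPA2 mice 4 and 5 and in all LPA3 tumours but mouse 2, and the difference was 1.33 (SE 0.962), or 0.66 without LPA2 mouse 3 and 0.70 without LPA3 mouse 4.

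Peptide hormone and amine genes had 11 of 15 members below 0 and a median of −0.41, which was −0.01 without LPA2 mouse 3 and 0.39 on the second slide set. Besides Cck, Vip had −1.22 (SE 0.998), and Chgb, a granin of secretory granules, −0.78 (SE 0.496). Both were above 0 on the second slide set, and without LPA2 mouse 3 Vip was at −0.07 and Chgb at 0.16.

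Of the 12 other lists none had more than 1 member at an unadjusted p under 0.05. Their median differences with the covariate ran from −0.28 for mast cell and −0.27 for fibroblast and collagen genes to 0.00 for matrix metalloproteinases and their inhibitors. Fibroblast and collagen genes were below 0 in 12 of 16 members, but their median was 0.58 on the second slide set and −0.46 on the first. The medians lay between these for neutrophil (−0.16), liver (−0.14), squamous differentiation (−0.09), brain (−0.07), skeletal muscle (−0.05), class II antigen presentation (−0.04), fatty acid synthesis (−0.04), immediate early (−0.03) and hypoxia and glycolysis genes (−0.01). Most of these were close to the −0.03 of all genes. Leaving out single tumours changed the sign of several, mast cell genes reaching 0.12 without LPA2 mouse 3 and hypoxia and glycolysis genes lying between −0.35 without LPA2 mouse 3 and 0.38 without LPA2 mouse 4.

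**Figure D4:**
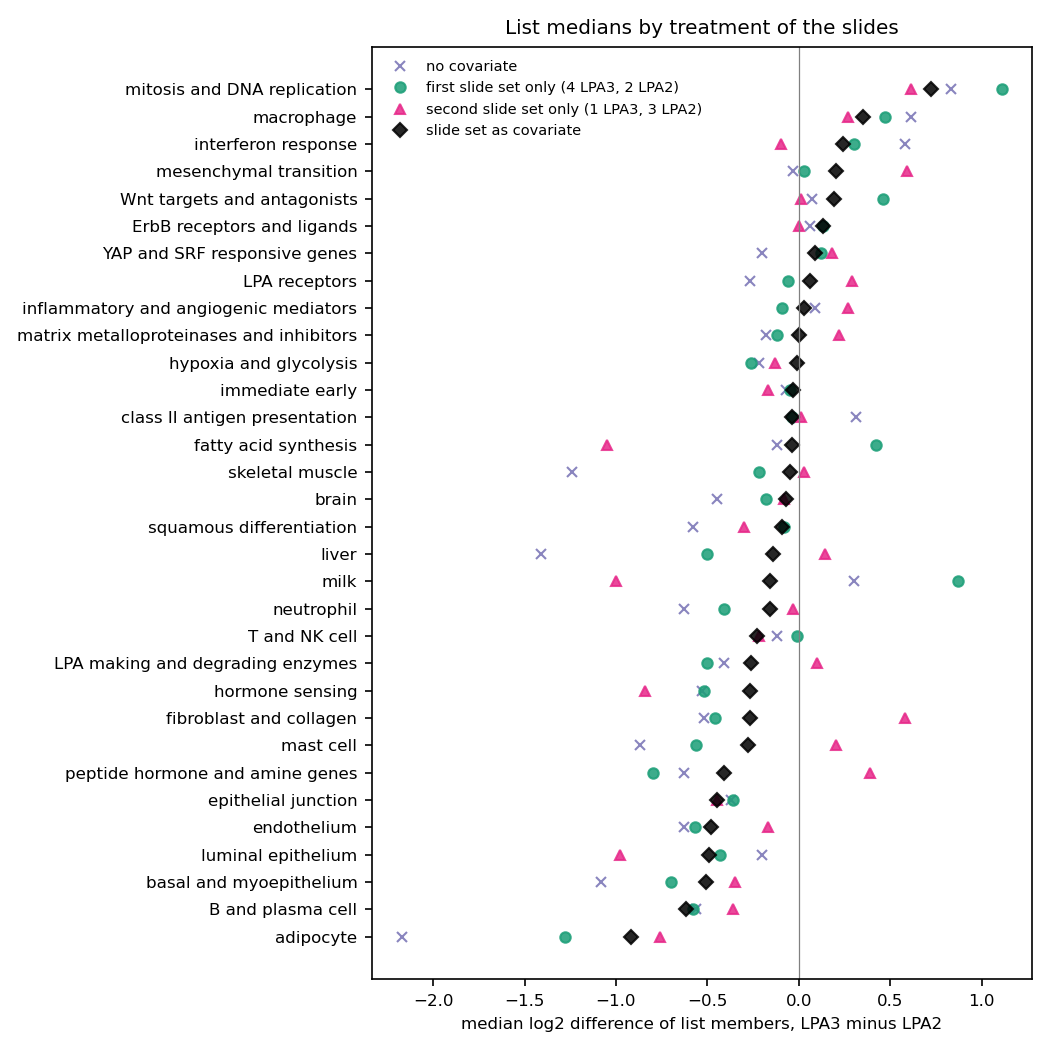
Median log2 difference of LPA3 minus LPA2 tumours over the members of each of 32 gene lists (horizontal axis), with the slide set as a covariate, without it, and within each slide set. The mitosis median is above 0 and the adipocyte, basal and endothelial medians are below 0 in all 4 fits. Several other lists also keep their sign, among them macrophage and Wnt genes above 0 and luminal, junction and B cell genes below it. The adipocyte, liver and skeletal muscle medians are lowest without the covariate.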

How the data were processed

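The deposited value table holds the authors' processed log2 ratios of tumour (Cy5) to whole-mouse RNA (Cy3), 1 per feature and array, for 45220 features and 21 arrays. The dyes and the RNeasy extraction are given per the labels. Scanner processing, background correction and normalization are not given in the sources used here. Values ran from −11.437 to 9.86, for which a log base of 2 was assumed, and every array had a median of 0. The table carries no signal over background, so no dim probe was removed, and the precision rests on the number of tumours.

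Features with 1 gene symbol in the platform annotation (33653 features) were averaged to 19087 genes, 56 features with several symbols and 11511 with none stayed unnamed, and 628 values were missing. Features of a gene did not always move together. Over the 20 tumours the least alike pair correlated at −0.07 for Adgre1, −0.06 for Cyp2d22 and −0.05 for Esr1. It correlated at 0.02 for Acta2, 0.14 for Snn and 0.22 for Steap3. The test took the 19069 genes with values in 4 or more tumours of each genotype. limma 3.58.1 in R 4.3.3 (lmFit and eBayes) fitted genotype and slide set over all 20 tumours, with 15 residual degrees of freedom, the 2 arrays of LPA1 mouse 4 averaged, and Benjamini-Hochberg adjustment over all genes at 0.05. The slide was read from the array titles. A difference is LPA3 minus LPA2 in log2 units, as fitted, and can differ from that of the printed means because of the slide set. Within a slide set it comes from that set's tumours alone. The fit was tested on data simulated with normal noise at each gene's fitted spread, with 200 genes changed in the LPA3 tumours. Of 50 genes changed by 1 log2 unit 14 were called, and of 50 changed by 2 units 35. Changes of 3 and 4 units gave 44 and 49 of 50, and 5 of 18869 unchanged genes were called. Small differences would thus often be missed. Tables and figures were made with Python 3.11.15 (numpy 2.4.6, pandas 2.3.3, matplotlib 3.10.9).

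Named genes were the 8 of smallest p in each direction and the 8 of largest size in each direction among those without overlap. The LPA receptor genes and genes earlier called over the 4 genotypes were added. For the lists described gene by gene, up to 3 members of largest size were named. Of those lists, members at an unadjusted p under 0.05 were named too, a choice made after their values were seen, as was that of promoters. The other lists, among them interferon response and T and NK cell genes, were given by counts or medians alone. The comparison, the rule and the 32 lists (504 entries, 474 measured) were chosen with earlier results of these data known. Mouse numbers were checked as pairs: deviations of same-numbered LPA2 and LPA3 mice correlated at −0.157 to 0.096, and the labels describe separate mice, so they were not treated as pairs. Alternatives were no covariate, the slide as a fixed or random block, each slide set alone, only the 10 tumours, scale or quantile normalization, array weights, a trended robust prior, exact 0 values as missing, features in place of genes, medians over features, and leaving out each tumour. Promoter sequences are from RefSeq (GRCm38.p6).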

Additional observations from a re-analysis of the deposited data

Results flagged for a closer look

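Within each group of 5 tumours, a tumour was singled out where its gap to the nearest other tumour was large against the whole range of the group (Dixon's test at the 95% level). Of 254 groups of values tested, 43 had such a tumour. Many of the genes were chosen for large differences in these data, and the groups are not independent. The 1 in 20 that chance gives in unselected groups is therefore no yardstick here. No cause was weighed.

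LPA2 mouse 3 accounted for 18 of them. It was above the other LPA2 tumours in Spdef (4.42), Wfdc12 (4.14), Olfr1406 (3.14), Foxa1 (3.09), Mzb1 (3.06), Esrp1 (2.88), Copb2 (1.04) and Marco (0.68). It was below them in Mki67 (−3.32), Mcm6 (−3.28), Lef1 (−2.36), Exo1 (−2.15), Rrm2 (−1.82), Cfap54 (−1.80), Cdh5 (−1.68), Trmt44 (−1.45), Pla2g4a (−1.33) and in the median of the LPA receptor genes (−1.08).

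LPA3 mouse 4, the LPA3 tumour of the second slide set, accounted for 11. Its list medians were nearer to 0 than those of the other LPA3 tumours for adipocyte (−0.58), skeletal muscle (−0.65), liver (−0.76), basal and myoepithelial (−0.22), endothelial (−0.31) and peptide hormone genes (−0.74), and so was Chgb (−0.74). It was also the highest LPA3 tumour in Cfap54 (3.91) and Sod3 (2.13) and the lowest in Steap3 (−2.42) and Olfr1406 (−1.90).

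LPA3 mouse 2 stood apart in 6 values. It was high in Crb3 (2.03) and Mzb1 (1.86) and low in Twist1 (−2.31), Ptgs2 (−0.37), the LPA receptor median (−2.40) and the median of matrix metalloproteinases and their inhibitors (−1.52). LPA2 mouse 4 was low in Nmu (−4.52), Chgb (−4.38) and the peptide hormone median (−1.40) and high in the macrophage median (1.74). LPA3 mouse 5 was high in Trmt44 (5.26) and low in Cd5l (−5.67), and LPA3 mouse 3 was low in Vip (−6.98) and Adgre1 (−0.91).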

How the results depend on the processing

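The number of genes called in limma was 0 in all alternatives run but 1. With the second slide set alone it was 163, of which 68 were higher in LPA3 tumours, and 2033 genes were at an unadjusted p under 0.05. That fit holds 1 LPA3 tumour, assumed to vary like the other groups, so its calls compare that tumour with 3 LPA2 tumours. Leaving out each tumour in turn gave 0 calls each time and 727 to 1862 genes at an unadjusted p under 0.05. Mouse numbers shared between the genotypes gave no sign of pairing, and the fit with mouse number as a replicate block called 0 genes, with 1116 at an unadjusted p under 0.05.

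Of 2182 recomputed differences of 95 genes under 23 alternatives, 2157 kept their direction, and 84 genes kept it throughout. Reversed on the second slide set alone were Plpp2 (−0.23), Plpp3 (0.46), Spdef (0.03), Vip (0.56), Chgb (0.53) and Lef1 (−0.04), and on the first alone Esr1 (0.01), Tnfsf11 (1.05) and Lpar1 (−0.22). Without LPA2 mouse 3 these were Spdef (0.06), Chgb (0.16) and Mki67 (−0.29), and without the covariate Ccl8 (0.03) and Lpar1 (−0.53). Tnfsf11 was also above 0 over the 10 tumours only (0.21), with the slide as a fixed block (0.10), and without LPA2 mouse 1 (0.13), LPA2 mouse 2 (0.03) or LPA3 mouse 4 (0.15). Lpar1 was below 0 with the mouse number (−0.03), the slide as a fixed (−0.22) or random block (−0.43), and without LPA2 mouse 2 (−0.02), LPA3 mouse 4 (−0.10) or LPA3 mouse 5 (−0.28). Over leaving out each tumour in turn, the differences ran from −1.66 to 0.06 for Spdef, −1.14 to 0.16 for Chgb, −0.28 to 0.27 for Lpar1, −0.52 to 0.15 for Tnfsf11 and −0.29 to 0.95 for Mki67. The cause was not tested. Of 736 list medians, 16 moved by more than 1 SD between tumours. With exact 0 values as missing, 4933406I18Rik, Sod3 and Cfap54 had too few values to be tested. Without signal over background, ratios near the detection limit cannot be told from measured ones.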

Other observations

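The ATX and LPA1 tumours give the levels of the leading genes under the other transgenes. Given as means ± SD of 5 tumours each and without a test, Retnla was at −0.09 ± 1.64 in ATX and 0.59 ± 1.31 in LPA1 tumours, nearer to the LPA2 mean of 0.81 than to the LPA3 mean of −2.41. Cck was at 0.44 ± 0.617 in ATX and 0.92 ± 1.06 in LPA1 tumours, against −1.64 ± 0.552 in LPA3 tumours. Edn1 had −0.12 ± 0.617 and 0.37 ± 0.511, against −1.72 ± 0.97 in LPA3 tumours. For Bmp7 the order was another one: ATX and LPA3 tumours had 0.89 ± 1.2 and 0.79 ± 0.937, and LPA1 and LPA2 tumours −1.92 ± 1.19 and −1.25 ± 0.81. These tumours also differ in slide set, with none of the ATX tumours on the second, and the means are not adjusted for it.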
